A study of Mus musculus with 8 samples.

Results

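The genes described here are 9 receptor tyrosine kinases outside the PDGF and insulin receptor families (Fgfr1, Fgfr2, Fgfr3, Egfr, Erbb2, Met, Axl, Ddr1 and Ddr2), out of 55450 annotated mouse genes. They were followed through the m6A peak summits that fall in their annotated exons (GENCODE M21, GRCm38), where a summit is the base with the most pulled-down fragments in a peak. Of the 9 genes, 7 had at least 1 exonic summit in these data, against 6068 genes in all. Fgfr3 and Axl had none in any list.

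Primary vascular smooth muscle cells (VSMCs) were grown from the descending aorta of C57BL/6J mice aged 8 to 12 weeks and used at passage 5 to 7. They were transduced for 24 h with lentivirus carrying a hairpin RNA, which was a control (shCTR) or targeted Mettl14 (shMettl14), and collected 48 h later. The control vector was pLKO.1-2A-GFP with a hairpin aimed at a plant microRNA sequence, so the control cells also carried virus, GFP and a hairpin. A single Mettl14 hairpin was used in these samples. Fragmented RNA was enriched on beads with an antibody to m6A (IP). Sequencing covered IP and input RNA for replicates A and B under both hairpins. This gives 8 samples and 4 peak lists, 2 per hairpin, each called against its own input. Nothing in the labels says that A and B came from separate cultures, so any p-value measures only the spread between these samples, which may be technical.

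The lists held 8655 to 13675 summits, with a median of 13 to 16 IP fragments at a summit, and read totals were not analysed here. shMettl14 A was the longest list and shMettl14 B had the lowest median input background. Mettl14 itself, the gene the hairpin targets, had no exonic summit in any list, so the lists hold no check of its knockdown. Peak lists record m6A peaks and not transcript amounts, and they could check the cell type only weakly. Of 5 smooth muscle marker genes, 1 (Myh11) had a summit, in 3 lists, and Acta2, Tagln, Cnn1 and Smtn had none. Of 4 endothelial genes, Pecam1 and Cdh5 had summits in all 4 lists and Vwf and Tek had none, although the methods state that endothelium was removed by scraping before the cells grew out, and 0 of 3 leukocyte genes had one. Cdh5 had 3, 4, 7 and 4 summits in shCTR A, shCTR B, shMettl14 A and shMettl14 B. The part of other cell types in the receptor peaks was not tested.

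Receptor tyrosine kinases are single-pass membrane proteins that dimerise on ligand binding and phosphorylate tyrosines on each other and on adaptor proteins, which feed the Ras/MAP kinase, PI3 kinase and phospholipase C gamma routes. Fgfr1, Fgfr2 and Fgfr3 bind fibroblast growth factors, Egfr binds EGF-like ligands, Erbb2 has no known ligand of its own and pairs with other EGF receptor family members, Met binds hepatocyte growth factor, Axl binds Gas6, and Ddr1 and Ddr2 bind collagen. In smooth muscle, FGF and EGF receptor signalling is known for promoting proliferation, and the collagen receptors sense the matrix around the cell. N6-methyladenosine is written by the Mettl3/Mettl14 complex at adenosines within DRACH, a motif of 5 bases whose D stands for any base but C, R for a purine and H for any base but G, and it is often found near stop codons.

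Because a peak is far wider than the base it reports on, the nearest candidate base was read for each region. Intervals of the 4 lists that shared at least 1 bp were merged into regions, which gave 11 regions in the receptor exons. For the 8 found in all 4 lists, the DRACH site nearest the median summit is given in 25 bases of the GENCODE M21 mRNA, 5′ to 3′ and written with T for U. Capitals mark the letters of that nearest site only, and any other DRACH in the stretch stays in lower case. The sequences show how close a motif lies to the median of the summits that the 4 lists place in a region. They do not show that this adenosine is the methylated one.

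Fgfr1 5′ UTR, exon 1 of 18, region chr8:25518811-25519100, plus strand: gactggactgAGACTgtgcttagcg

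Fgfr1 end of the coding sequence, exon 18 of 18, region chr8:25573753-25574114, plus strand: tgccaacagtGGACTcaaacggcgc

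Fgfr2 3′ UTR, exon 18 of 18, region chr7:130163597-130163948, minus strand: acatgttaccTAACCaggaaaggaa

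Egfr 3′ UTR, exon 28 of 28, region chr11:16911696-16912434, plus strand: attgatcttcGAACTgtgaagattc

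Erbb2 3′ UTR, exon 27 of 27, region chr11:98436356-98437179, plus strand: tctggccacaTGACAtccagggcag

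Ddr1 3′ UTR, exon 19 of 19, region chr17:35681685-35682201, minus strand: ggggtgagggGGACAaggacggcca

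Ddr2 3′ UTR near the stop codon, exon 18 of 18, region chr1:169977577-169977913, minus strand: cactccagctGGACAttcaatggac

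Ddr2 3′ UTR far from the stop codon, exon 18 of 18, region chr1:169973239-169973515, minus strand: aacaatccaaGGACAacttaagaaa

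Erbb2 and both Fgfr1 regions had such a site 1, 4 and 2 nt from the median summit. Fgfr2 had one at 3 nt, the near and far Ddr2 regions at 10 and 7.5 nt, Egfr at 18 nt and Ddr1 at 30.5 nt. In Egfr and Erbb2 every list, and in Ddr1, near Ddr2 and the Fgfr1 stop codon region some lists, had several summits, so the median summit can lie between summits there. The Erbb2 site, 108 nt past the stop codon, lies among summits of shCTR A and shMettl14 A, and neither B list had a summit in that group. GGACT, the DRACH form read here as a stricter motif, was the nearest form only at the end of the Fgfr1 coding sequence, where its adenosine lay 13 nt before the stop codon. The Fgfr1 5′ UTR stretch also holds a GGACT, in lower case just before the marked site. The nearest form was GGACA in all 3 regions of the collagen receptors Ddr1 and Ddr2.

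A DRACH motif within 50 nt was present at every receptor summit, which is 15 of 15 and 12 of 12 in the shCTR lists A and B, and 21 of 21 and 14 of 14 in the shMettl14 lists A and B. Over all exonic summits that lie in a single coding transcript, the share was 94.95% to 96.2%. DRACH is common, and 89.3% of all windows of 101 nt in the 7 receptor mRNAs hold one. GGACT lay within 50 nt of 4, 3, 4 and 5 summits in the same order of lists, or 26.7%, 25%, 19.0% and 35.7%, against 19.7% to 23.6% over all such summits and 12.1% of windows in these mRNAs.

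The receptor summits lay at the 3′ ends of their mRNAs. The last exon held 13 of 15 and 11 of 12 summits in the shCTR lists A and B and 19 of 21 and 12 of 14 in the shMettl14 lists, which is 85.7% to 91.7%, beside 63.7% to 64.8% over all exonic summits in coding transcripts. The 3′ UTR held 66.7%, 66.7%, 76.2% and 71.4% of them, beside 29.7% to 32.02% over all. Summits of one mRNA are not independent of each other and 7 genes give all of these, so the shares are descriptive.

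Summits within 200 nt of a stop codon numbered 6 of 15 and 5 of 12 with shCTR (A and B) and 10 of 21 and 6 of 14 with shMettl14. The mean share was 40.8% ± 1.18 (SD, n = 2) with shCTR and 45.2% ± 3.37 (SD, n = 2) with shMettl14, and both shMettl14 lists lay above both shCTR lists. The exact permutation test of this difference, two-sided, gave p = 0.333, the smallest p that 2 against 2 allows. The groups overlapped within 100 nt and with equal numbers of top summits per list, where the difference was 3.69 and 0.48 percentage points. Within 400 nt the difference was -0.24 percentage points, so its sign rested on the width of the window. Over all exonic summits the share within 200 nt was 25.4% to 27.1%, and such positions make up 6.55% of the 7 receptor mRNAs.

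**Figure D1:**
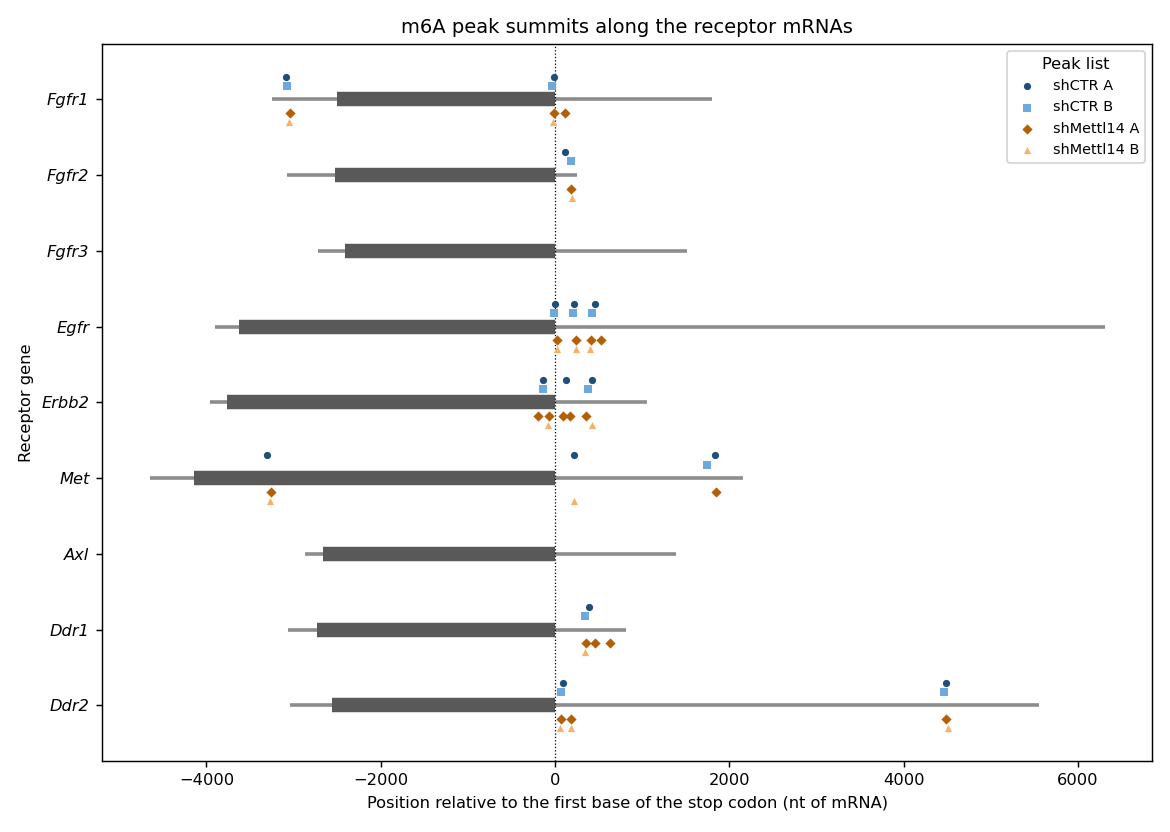
Positions of m6A peak summits along the mRNA of each of the 9 receptors, in nt from the first base of the stop codon, with the coding sequence as a thick bar and the untranslated regions as thin bars, drawn to scale for the transcript with the longest coding sequence. Each symbol is 1 summit of 1 list, set above the bar for shCTR and below it for shMettl14. Of 19 groups of summits 11 hold summits of all 4 lists, none of them in Met, and Fgfr3 and Axl have no summit.

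The number of exonic summits in the receptors was 15 of 11158 and 12 of 8655 in the shCTR lists A and B, and 21 of 13675 and 14 of 9256 in the shMettl14 lists A and B. The mean was 13.5 ± 2.12 (SD, n = 2) with shCTR and 17.5 ± 4.95 (SD, n = 2) with shMettl14, the groups overlapped, and the exact permutation test gave p = 0.667. Counted as separate intervals they were 11, 9, 10 and 10, so the excess of shMettl14 A lay in intervals with several summits. Per kb of mRNA and per list, Erbb2 had 0.599 summits, Fgfr1 0.446, Ddr1 0.387, Egfr 0.318, Fgfr2 0.301, Met 0.294 and Ddr2 0.291. Of the 6 Ddr1 summits shMettl14 A held 3 and each other list 1, so the place of Ddr1 above Egfr and Fgfr2 rests on that list.

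Egfr carried a single broad region of 739 bp over its stop codon and the start of a 3′ UTR of 6303 nt. Within it the lists placed 3, 3, 4 and 3 summits (shCTR A, shCTR B, shMettl14 A, shMettl14 B). Summits less than 75 nt apart fell into 3 groups, each present in all 4 lists, at -12 to 25 nt, 204 to 246 nt and 402 to 522 nt from the stop codon. The first group spread over 37 nt and the middle one over 42 nt. Intervals with 3 or more summits made up 3.76% to 11.8% of all intervals of a list. The strongest Egfr summit had a fold enrichment (IP fragments over the caller's input background, 1 added to each) of 15.7 and 11.3 with shCTR (A and B) and of 18.2 and 18.97 with shMettl14. In shCTR A that summit lay at the stop codon, and in the other lists at 204 to 246 nt, where shCTR A had 14.5.

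To compare lists of different depth and background, fold enrichments were read as percentiles within their own list. Such a percentile also depends on how many weak summits a list holds, and the lists differed in length. On that scale the Egfr region stood at 91.3 and 75.3 with shCTR and at 97.6 and 95.5 with shMettl14, so both knockdown lists lay above both control lists. Of all 4929 regions present in the 4 lists, 17% had both shMettl14 lists above both shCTR lists by rank and 15.8% had both below, and Egfr was 1 of 8 receptor regions ranked above, with 0 below. The rank change of Egfr was 0.87 ± 0.50 normal score units (SE), with an adjusted p of 0.993 by limma, which did not pass 0.05. The same order did not hold for the mean over all Egfr summits, which was at the percentiles 80.7 and 63.2 with shCTR and 85.1 and 64.01 with shMettl14, where the groups overlapped. At the middle group of summits, 204 to 246 nt past the stop codon, the percentiles were 88.6 and 75.3 with shCTR and 97.6 and 95.5 with shMettl14, again with both knockdown lists above. In the groups on either side the hairpins overlapped, at 91.3 and 62.8 against 93.4 and 74.2 near the stop codon, and at 62.3 and 51.5 against 76.3 and 22.3 farther out.

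Erbb2, the partner receptor of the EGF receptor family, likewise had 1 broad region, of 824 bp, within its last exon of 1404 nt. It held 3, 2, 5 and 2 summits. One group of summits lay in the coding sequence at -192 to -74 nt from the stop codon and another in the 3′ UTR at 353 to 427 nt, both in all 4 lists. A middle group, at 89 to 168 nt, was listed in shCTR A and shMettl14 A and in neither B list. The strongest summit stood at the percentiles 78.3 and 86.1 with shCTR and 78.5 and 84.3 with shMettl14, so the groups overlapped, and the rank change was -0.09 ± 0.50 (SE). That summit was a coding one in both shCTR lists and a 3′ UTR one in both shMettl14 lists, so these values compare different sites. At the coding summits alone the percentiles were 78.3 and 86.1 with shCTR and 60.4 and 52.1 with shMettl14, so both knockdown lists lay below both control lists there. The groups overlapped at the 3′ UTR summits of 353 to 427 nt (77.5 and 82.8 against 78.5 and 84.3). Of the 8 receptor summit groups compared in this way, 1 lay above in both shMettl14 lists (the middle Egfr group) and 2 lay below (Erbb2 coding and near Ddr2). Of 3615 such groups in regions of all genes, 18.6% lay above and 14.7% below. These values by summit group were taken after the data were seen and were not tested.

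Fgfr1, an FGF receptor, had one region in the 5′ UTR and another over the stop codon, and both were in all 4 lists. The 5′ UTR summits, in exon 1, lay within 47 nt of each other and were the only 5′ UTR summits of the 7 receptors, 1 in each list. Over all exonic summits in coding transcripts, 2.27% to 2.90% lay in the 5′ UTR. The percentiles of this region were 60.7 and 35.7 with shCTR (A and B) and 60.1 and 9.23 with shMettl14. The A lists stood within 1 point of each other and shMettl14 B lay below all other lists. The change was -0.45 ± 0.53 (SE), which was 0.17 without shMettl14 B.

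At the Fgfr1 stop codon, 1 summit per list fell at -36 to -11 nt, with shCTR A and shMettl14 A on the same base. shMettl14 A had a second summit at 119 nt. Its percentiles were 17.8 and 46.6 with shCTR and 57.2 and 30.3 with shMettl14, and the change was 0.33 ± 0.52 (SE).

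Fgfr2, another FGF receptor, had 1 summit per list at 119 to 194 nt past the stop codon, in the last exon of 415 nt. Its percentiles were 68.4 in shCTR A, 37.0 in shCTR B and 72.2 in shMettl14 A, but 2.49 in shMettl14 B. The summit in shMettl14 B rested on 8 IP fragments (95% exact Poisson interval 3.45 to 15.8, counting error only) against 17, 17 and 16 in the other lists, with a −log10 q-value of 2.09 where the list's own minimum was 2.01. The rank change was -0.72 ± 0.60 (SE) and did not pass the test. Without shMettl14 B it was 0.39. The annotated Fgfr2 gene spans other genes, and 13 to 26 of the 14 to 30 further summits per list inside its limits lay in exons of those genes, which is why only exonic summits were used.

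Fgfr3, the remaining FGF receptor of the group, had 0 exonic summits, although its mRNA holds 71 DRACH sites, or 1.68 per 100 nt. Axl, the Gas6 receptor, likewise had 0, with 89 sites or 2.09 per 100 nt. The 7 receptors with summits held 1.78 to 2.26 sites per 100 nt. A gene without a peak was not detected at this depth, and the lists do not tell an unmethylated mRNA from a scarce one. In bulk RNA, fewer cells of a type and less RNA per cell cannot be told apart either.

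Met, the hepatocyte growth factor receptor, was the only receptor with summits that had no region in all 4 lists. A coding region in exon 3 (chr6:17492006-17492167) was listed in shCTR A at the percentile 56.1, in shMettl14 A at 68.7 and in shMettl14 B at 60.6, and not in shCTR B. A 3′ UTR region at 215 to 221 nt past the stop codon (chr6:17571940-17572123) was listed in shCTR A at 61.8 and shMettl14 B at 42.9. A second 3′ UTR region at 1742 to 1843 nt (chr6:17573544-17573736) was listed in shCTR A at 34.9, shCTR B at 50.7 and shMettl14 A at 80.7. All Met summits rested on 8 to 18 IP fragments. Each hairpin therefore had every Met region in at least 1 of its lists. Over all Met summits the mean percentile was 50.9 and 50.7 with shCTR and 74.7 and 51.8 with shMettl14, from regions that differ between lists. Both shMettl14 lists lay above, with p = 0.333 by the exact permutation test, the smallest it allows.

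Ddr1, a collagen receptor, had a region at 339 to 628 nt past the stop codon, in its last exon of 952 nt, with 1, 1, 3 and 1 summits. The strongest stood at 76.3 and 84.0 with shCTR and 83.8 and 87.4 with shMettl14, and the groups overlapped. It had the most IP fragments of all receptor regions in each list, at 43, 43, 39 and 37. The rank change was 0.19 ± 0.50 (SE).

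Ddr2, the other collagen receptor, had its 2 regions far apart in a 3′ UTR of 5548 nt. The far region, 4460 to 4511 nt past the stop codon, had 1 summit per list within 51 nt, at 38.4 and 50.3 with shCTR and 40.6 and 40.8 with shMettl14. The near region had a summit at 57 to 90 nt in every list. Both shMettl14 lists also gave it a second summit, at 186 nt in A and 183 nt in B, which neither shCTR list had. Of all regions in the 4 lists, 9.58% had more summits in both shMettl14 lists than in both shCTR lists and 0.629% had fewer, and the near Ddr2 region was 1 of 8 receptor regions with more. The percentiles of its strongest summit were 22.4 and 52.5 with shCTR and 36.0 and 11.99 with shMettl14, where the shMettl14 values are those of the second summit. At the summit of 57 to 90 nt that all lists share, they were 22.4 and 52.5 against 9.34 and 5.26, so both shMettl14 lists lay below both shCTR lists, a comparison made after the data were seen and not tested. The changes of the far and near regions were -0.08 ± 0.50 and -0.38 ± 0.52 (SE). Over all Ddr2 summits the mean percentile was 30.4 and 51.4 with shCTR and 28.6 and 19.3 with shMettl14. Both shMettl14 lists lay below, with p = 0.333 by the exact permutation test, the smallest it allows. By this measure only Met had both above, and the hairpins overlapped in the other receptors with summits.

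**Figure D2:**
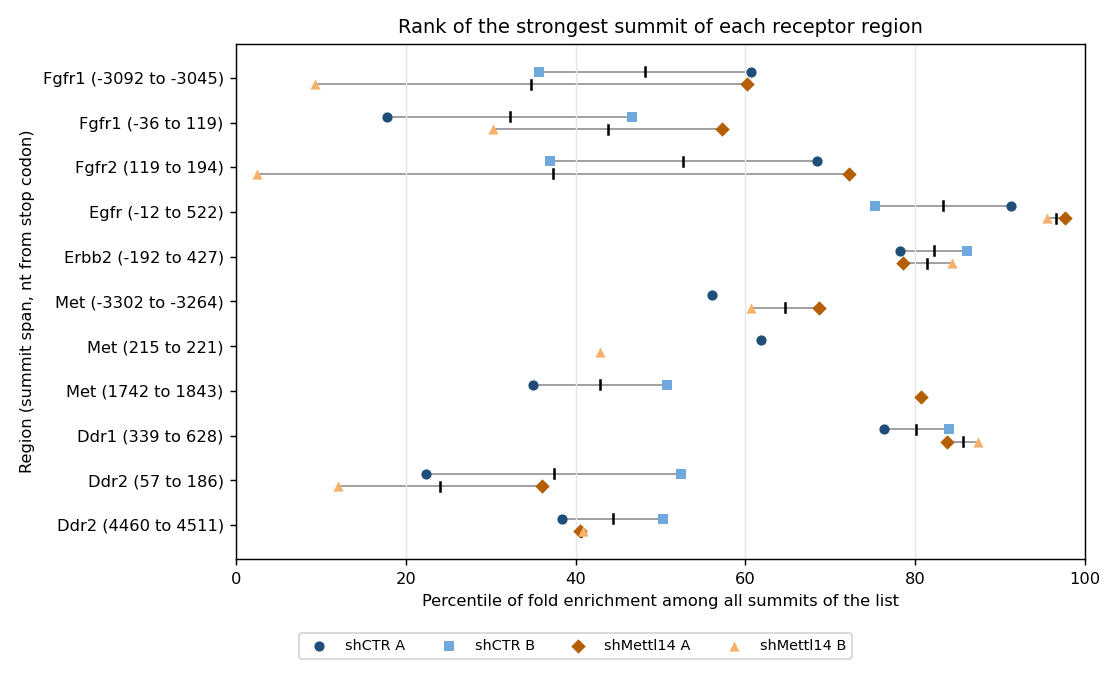
Percentile of fold enrichment of the strongest summit of each receptor region, among all summits of its list, with 1 symbol per list, grey lines over the range of a hairpin's lists and black ticks at their mean. Labels give each region's summit span in nt from the stop codon. The Egfr symbols of shMettl14 (95.5 and 97.6) lie above both of shCTR, while the other regions with 4 symbols have lists that overlap.

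The order of the regions by their mean percentile over the 4 lists was Egfr (89.9), Ddr1 (82.9), Erbb2 (81.8), Fgfr2 (45.02), far Ddr2 (42.5), Fgfr1 5′ UTR (41.4), Fgfr1 stop codon (38.0) and near Ddr2 (30.7). The lowest value among the first 3 was 75.3 and the highest among the other 5 was 72.2, so by the strongest summit of each region these sets did not overlap in any list. By the mean over all summits of a gene they did, with Erbb2 at 60.7 and Fgfr2 at 68.4 in shCTR A and at 68.5 and 72.2 in shMettl14 A. Neighbours within each set did overlap. Egfr ranged from 75.3 to 97.6, Ddr1 from 76.3 to 87.4 and Erbb2 from 78.3 to 86.1.

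Regions of like fold enrichment differed in what it was made of. The strongest Erbb2 summit lay in the coding sequence in both shCTR lists and in the 3′ UTR in both shMettl14 lists. It had 14, 21, 13 and 15 IP fragments over an input background of 0.296, 0.562, 0.306 and 0.207 fragments (shCTR A, shCTR B, shMettl14 A, shMettl14 B), whereas Ddr1 had 43, 43, 39 and 37 over 2.91, 2.28, 2.41 and 1.68. Neither value was scaled by transcript length. Among the 4929 regions of the 4 lists, the background of Erbb2 lay at the percentiles 11.3 to 28.1 and that of Egfr at 27.2 to 30.2. That of Ddr1 lay at 82.5 to 86.5.

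The Fgfr1 stop codon region had 36, 35, 29 and 25 IP fragments at its strongest summit, over a background of 5.66, 3.65, 2.74 and 3.00. In shMettl14 A that summit is the one at 119 nt, and the summit it shares with the other lists had 38 fragments over 3.91. The fragments were below those of Ddr1 in each list and above those of the other receptor regions, except in shMettl14 B, where Egfr also had 25. Its background lay at the percentiles 89.1 to 96.0, the highest mean of the 8 regions. It therefore ranked low by fold enrichment and high by fragments. Over all Fgfr1 summits, the mean percentile by IP fragments was 75.7 with shCTR and 74.6 with shMettl14, beside 40.2 and 38.8 by fold enrichment.

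**Figure D3:**
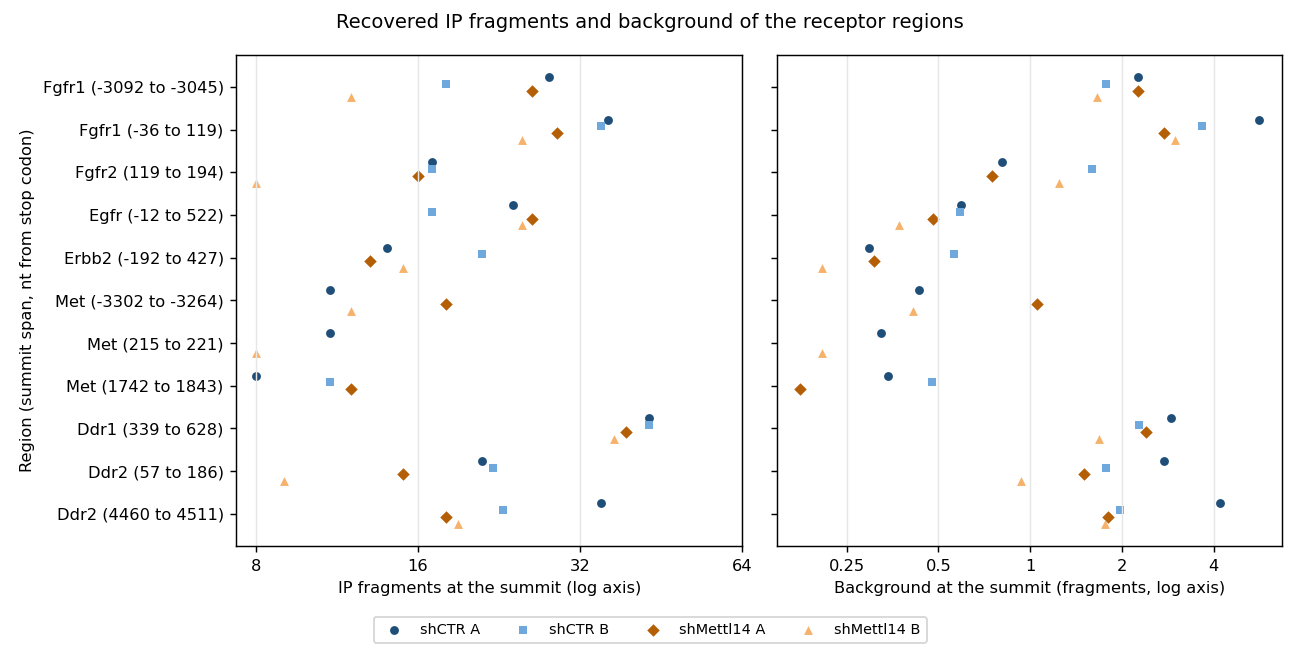
IP fragments (left) and input background (right) recovered at the strongest summit of each receptor region, both on log axes, with 1 symbol per list. Ddr1 has the most IP fragments in each list (37 to 43), and Egfr and Erbb2 have backgrounds of 0.207 to 0.593 fragments.

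The input background is the nearest measure in these lists to how much of a transcript was present, and it was compared after each list was centred on its median. It is a weak measure, since regions of the same gene can differ. Fgfr1 changed by 0.48 in the 5′ UTR and by -0.14 at the stop codon. Low backgrounds are also coarse. In shMettl14 B the value was 0.207 at the Erbb2 coding, Erbb2 3′ UTR and first Met 3′ UTR summits alike. By limma, 0 of the 8 receptor regions passed an adjusted p of 0.05 and 0 passed an unadjusted p of 0.05, where 0% and 5.62% of the 4929 regions did. The largest change was that of the Fgfr1 5′ UTR region, 0.48 ± 0.29 on the log2 scale (SE, adjusted p = 0.914 by limma), and the lowest was that of near Ddr2, -0.37 ± 0.32. After centring, both shMettl14 lists lay above both shCTR lists in 2 receptor regions, Fgfr1 5′ UTR and Ddr1, and below in near Ddr2. For near Ddr2 this rests on the second summit of the shMettl14 lists, and at the summit shared by all lists the change was 0.47, with both shMettl14 lists above. Among the summit groups shared by all lists, the one below in both shMettl14 lists was that of Erbb2 at 353 to 427 nt, with a change of -0.23. Over all regions 20.1% lay above and 14.1% below. The median change was -0.05 over the 8 receptor regions and 0.06 over all.

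The comparison the study was built for is that of m6A peaks between the hairpins. By the rank test (limma on normal scores of the highest fold enrichment per region), 0 of 8 receptor regions passed an adjusted p of 0.05 and 0 passed an unadjusted p of 0.05. Among all 4929 regions, 0% and 4.93% did, which were 0 and 243 regions. Fisher's exact test on the highest IP fragment count per region, summed over the lists of each hairpin, gave 0 of 8 at either threshold, beside 0% and 2.56% of all regions by that test. Of the 8 changes 3 were above 0 and 5 below, with a median of -0.08, beside 50.1% above and a median of 0.0021 over all regions. The standard errors of the receptor changes, 0.50 to 0.60, were as large as most of the changes. A rank test measures position within a list, so that an equal loss of m6A at every site would leave it unchanged.

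**Figure D4:**
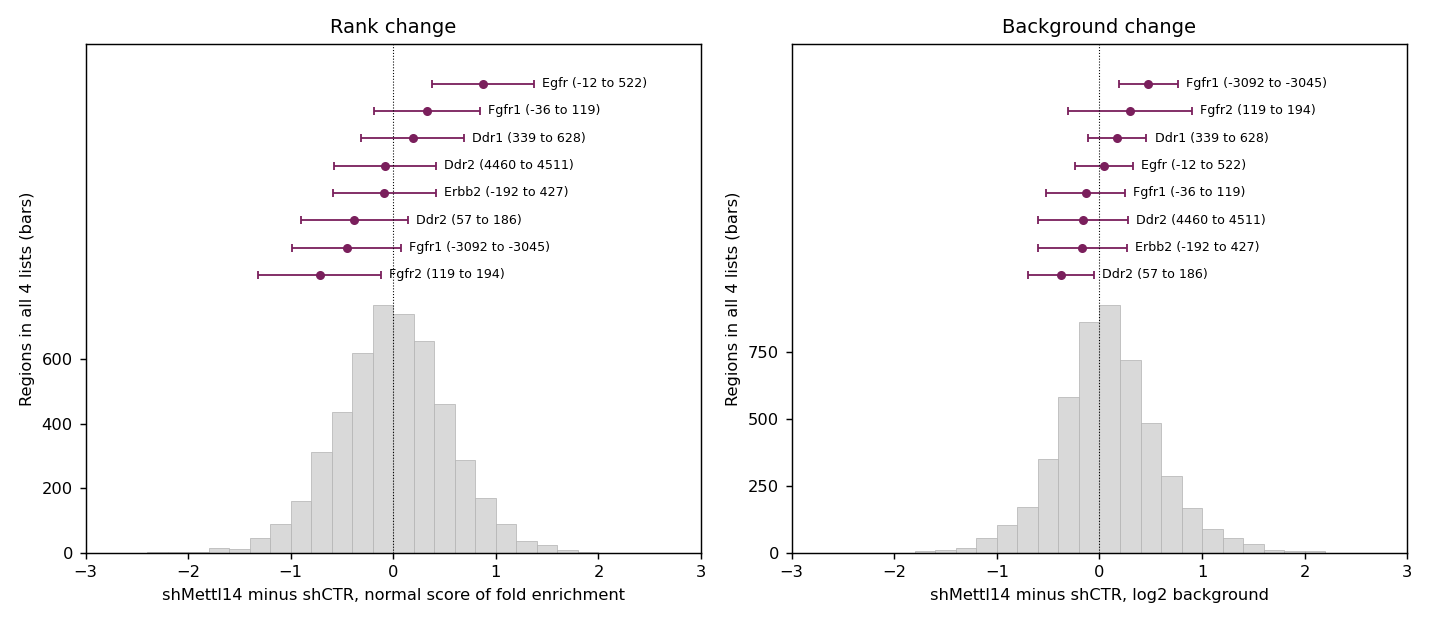
Changes of the 8 receptor regions (points, with SE as whiskers) above the distribution of the change over all 4929 regions found in the 4 lists (bars, number of regions), for the rank of fold enrichment on the left and the log2 input background on the right, each as shMettl14 minus shCTR. Egfr has the highest rank change of the receptors at 0.87 and Fgfr2 the lowest at -0.72, and both fall within the bars.

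No receptor region was listed under one hairpin alone in both of its lists. Of the 11 receptor regions 0 were in both shCTR lists and neither shMettl14 list, and 0 were in both shMettl14 lists and neither shCTR list, against 1.71% and 1.79% of all 11361 regions. Found in all 4 lists were 8 of 11, against 43.4% of all regions.

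Among 63 further genes of these pathways, 34 had an exonic summit and 25 had one in all 4 lists. By role these were 8 of 18 ligands, 1 of 7 related receptors (Mertk, the Axl relative that clears dying cells), 17 of 29 adaptors and effectors, and 8 of 9 genes of receptor turnover and inhibition. Of their 31 regions present in every list, 0 reached an adjusted p of 0.05 by limma and 1 passed an unadjusted p of 0.05, beside 4.93% of all regions. That 1 became 0 without shCTR A, 4 without shCTR B, 2 without shMettl14 A and 0 without shMettl14 B, where 226, 271, 254 and 318 of all 4929 regions passed. The rank changes were above 0 in 18 and below in 13.

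The genes with the most summits over the 4 lists were Pik3r1, the regulatory PI3 kinase subunit, with 20, the adaptor Crk with 17, the Ras exchange factor Sos1 with 13, and Errfi1 and Fgf7 with 12 each, equal to Frs2. Errfi1 is an inhibitor of EGF receptors, Fgf7 a ligand of Fgfr2, and Frs2 the docking protein of FGF receptors. The region with the unadjusted p under 0.05 was in Sos1 (chr17:80433791-80434254). Its percentiles were 90.3 and 69.5 with shCTR and 65.8 and 15.97 with shMettl14, and its rank change was -1.31 ± 0.53 (SE, adjusted p = 0.951 by limma). Regions in both shCTR lists and neither shMettl14 list were found once each in Fgf2, Gab1 and Plcg1, and 1 in both shMettl14 lists alone in Pik3cb. That is 3 and 1 of 54 pathway regions, beside 1.71% and 1.79% of all regions. These 4 were named after their values were seen.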

How the data were processed

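m6A-RIP-seq was performed on IP and input RNA of shCTR and shMettl14 VSMCs. The authors used STAR for alignment to mm10, SAMtools to select reads with a single mapping place, and MACS2 for peaks of an IP sample over the matching input. Versions and options are not given in the sources used here. The 4 deposited lists give intervals and summit coordinates, the fold enrichment, a ratio of IP to background, and −log10 p- and q-values. The authors also deposited 1 file per hairpin of intervals shared by both replicates, with no values.

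From the fold enrichment and −log10 p, the whole-number IP fragments and the background at each summit were recovered in 100% of summits (tolerance 0.001 in −log10 p). Summits were placed on the transcript with the longest coding sequence per gene in GENCODE M21. GENCODE M21 is on GRCm38, the assembly that mm10 names. Regions present in all 4 lists were tested with limma 3.58.1 (R 4.3.3) on within-list normal scores of fold enrichment and on log2 background centred on the list median, with Benjamini-Hochberg adjustment over all 4929. The fits and the recovery were tested on simulated data. The simulated lists had less noise than the real ones and larger changes than the receptor regions, so they do not show whether changes of that size can be found. Single values per list were compared by exact permutation tests, whose smallest p is 0.333 with 2 against 2.

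The genes, pathway genes, markers, tests and alternatives were chosen with earlier results of these data known. All 9 receptors are described, along with the 5 pathway genes with the most summits, Frs2, which tied with the last of them, and any region that passed a test. Regions of Fgf2, Gab1, Plcg1 and Pik3cb were added after their values were seen. Sequences are shown for receptor regions found in all 4 lists. Overlapping fragments are not independent molecules, so intervals cover counting error only.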

Additional observations from a re-analysis of the deposited data

How the results depend on the processing

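None of the receptor or pathway regions passed an adjusted p of 0.05 by limma or Fisher's exact test under any alternative. The replicate block by letter A or B gave 0 receptor calls in the rank and the background test, with 292 and 355 of 4929 regions at an unadjusted p under 0.05, and 0 pathway calls. With 2 letters the design does not show that the samples are paired (deviations of A from B correlated at r = 0.08 over 4929 regions between hairpins). The difference in the share of summits near stop codons, 4.40 percentage points within 200 nt, was -0.24 within 400 nt and 0.48 with equal numbers of top summits per list. That of summits with DRACH, 0, was 3.69 within 25 nt and 1.55 for GGACT. Receptors with a lower mean percentile in shMettl14 numbered 5 of 7, and 3 to 5 when a list was left out (3 without shMettl14 B). Leaving out a list also gave 0 to 1 control-only region (Met, without shMettl14 A) and 0 to 1 knockdown-only region (Met, without shCTR A), where 1 list then decides and 6.87% and 5.88% of all 11361 regions were listed so.

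Signs of most rank changes rested on single lists. Leaving out each in turn, the change ranged from -0.059 to 0.44 for Ddr1, -0.33 to 0.17 for far Ddr2, -0.88 to 0.13 for near Ddr2, -0.35 to 0.17 for Erbb2, -1.08 to 0.17 for the Fgfr1 5′ UTR, -0.17 to 0.82 for the Fgfr1 stop codon and -1.83 to 0.39 for Fgfr2. By −log10 p the Erbb2 change was 0.018, and those of far Ddr2, near Ddr2 and the Fgfr1 stop codon were -0.44, -0.75 and 0.16, with a mean percentile difference over all Ddr2 summits of -28.1 in place of -16.9. Egfr kept its sign when a list was left out, from 0.56 to 1.19. With the same group of summits taken in every list, an alternative chosen after seeing the data, the rank change was -1.004 for near Ddr2 (57 to 90 nt past the stop codon), -0.89 for the Erbb2 coding summits, and 0.23, 0.96 and -0.18 for Egfr from the stop codon outwards. The log2 background change became 0.47 for near Ddr2, -0.17 for Egfr at 204 to 246 nt, 0.089 for the Erbb2 coding summits and 0.12 for the Fgfr1 stop codon, the opposite sign to the strongest summit in each. The mean percentile difference of a gene over all its summits ranged likewise from -20.4 to 17.7 for Fgfr1, -50.2 to 19.5 for Fgfr2, -7.95 to 13.2 for Egfr, -16.1 to 7.70 for Erbb2 and -12.2 to 7.26 for Ddr1, and kept its sign for Met (0.917 to 23.9) and Ddr2 (-27.4 to -6.42). By the strongest summit alone, that of Ddr1 was 5.44. Among receptor regions, 1 passed an unadjusted threshold of 0.05 in each of 2 fits, Fgfr2 without shMettl14 A (rank change -1.83, adjusted p = 0.646 by limma, with 254 of 4929 regions at that threshold) and for the Erbb2 background without shCTR A (-0.70 on the log2 scale, adjusted p = 0.654 by limma, with 319 of 4929). In these fits the lone sample of a hairpin is assumed to vary like the others. Leaving out shMettl14 A gave the 3 calls among all 4929 regions, none in a receptor. The cause was not tested. The strongest summits of receptor regions rest on 8 to 43 fragments, which limits the precision of each value.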
